A study of Drosophila melanogaster with 5 samples.

Results

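Cytochrome c oxidase, or Complex IV, is the last enzyme of the mitochondrial respiratory chain and passes electrons from cytochrome c to oxygen. Its catalytic core is made of subunits encoded in the mitochondrial genome (mtDNA), and the nucleus encodes the smaller subunits around that core. Flight muscle of Drosophila melanogaster is packed with mitochondria and is among the tissues that depend most on this enzyme. Several fly genes for respiratory subunits also have a duplicate with the suffix L, and such duplicates are often expressed mainly in the testis.

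The transcripts of 10 nuclear genes for cytochrome c oxidase subunits were examined, of 17494 genes with exon counts. They were found by gene symbol in the deposited comparison table and joined to the counts on the FlyBase identifier, and all 10 were found. COX4, COX5A, COX5B, COX6B, COX7A, COX7C, COX8 and levy are called main copies here (8 genes), and COX4L and COX7AL are the L paralogues (2 genes).

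RNA was sequenced from dorsolongitudinal flight muscles dissected at 48 h after puparium formation (APF) from pupae kept at 25 °C, with muscles of 6 to 8 pupae pooled in each library. In the M1BP RNAi group (2 libraries, replicates 2 and 3), a hairpin against M1BP was expressed with the driver Mef2-GAL4, and the WT group (3 libraries, replicates 1, 2 and 3) carried the same driver without the hairpin. M1BP, Motif 1 binding protein, is a zinc-finger transcription factor that binds a motif of housekeeping promoters, and the comparison asked how muscle gene expression differs when M1BP is depleted. Mef2-GAL4 is active in all muscle lineages and in some neurons, the study used a hairpin line with the milder flight defect unless it stated another, and the labels gave neither the sex of the pupae nor a batch.

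Total counts per library were 57514444 and 46504821 in M1BP RNAi and 41676901 to 53556469 in WT. M1BP itself had 410 and 456 normalised counts (raw counts scaled by each library's size factor) in M1BP RNAi, against 666, 673 and 642 in WT, so the groups did not overlap. All 10 flight muscle markers were detected in every library, and their summed normalised counts were 2454760 and 2895680 in M1BP RNAi and 2640300 to 3650990 in WT. Their log2 fold changes, M1BP RNAi over WT, ran between -1.43 and 0.22. The median was -0.37, beside 0.02 over all genes tested, so the markers tended to be lower in M1BP RNAi. By the rule for calls given below, 0 of the 10 were called, beside 6.75% of all genes tested. M1BP RNAi replicate 2 was the extreme library on 2 measures. Genes of the mtDNA took 10.8% of its counts, against 14.6% in M1BP RNAi replicate 3 and 18.1% to 20.4% in WT, so both M1BP RNAi libraries lay below WT. Its 22 testis markers summed to 10163 normalised counts, against 476 in M1BP RNAi replicate 3 and 285 to 448 in WT, and each of the 22 was highest in that library. The male-specific RNA roX1 had 9618 and 5900 normalised counts in M1BP RNAi and 14.4, 4994 and 1062 in WT, a wide range within WT. The fits of COX7A and the L paralogues and the count of called testis markers are given below with and without M1BP RNAi replicate 2. For the mtDNA subunits and the other paralogues, no fit without it is given.

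Because M1BP binds Motif 1, the sites listed for these genes in the study's supplementary motif search are shown first. Each is an 18-base match to the M1BP matrix within a window around a gene start, written 5′ to 3′ on its own strand, with capitals for the 9 bases that align with the core GGTCACACT (searched on both strands).
COX5B: accgcGGTCACACTgatc
COX5A: attgcGGTCACACTgcat
COX4: gatgtGGTCACACTtctc
COX8: ggtatGGTCACAATgcgt
The sites of COX5B, COX5A and COX4 held the exact core. That of COX8 carried the substitution C8A, with positions counted from 1 at the 5′ end of the core and the base of the core first. The search covered the study's respiratory-chain genes, which include the 8 main copies and neither L paralogue. A site was listed for 5 of the 8 main copies, the 4 above and COX7C, whose site is not printed. The paper found a match at most of the promoters it searched, a share similar to that among the main copies. A listed site therefore does not set the main copies apart from the other genes searched. The windows of the 4 sites above were each 301 bases long. How often a match arises by chance in windows of that length was not tested. Over the whole list, 21 of 79 sites (26.6%) held the exact core on either strand. The list is a selection, so this is not the share over all promoters, which could not be computed here.

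On the dm6 build, the COX5B site lies at chr2L:6557807-6557824 on the plus strand, 7 to 24 bases past the first base of the gene and in its 5′ UTR. The COX4 site lies upstream of its gene at chr2L:19958646-19958663 on the plus strand, 50 to 67 bases before the gene start. The COX5A site is upstream as well, at chr3R:11819319-11819336 on the minus strand, 23 to 40 bases before the gene start. COX8 is on the minus strand of 3L, and the site was not placed within its window. A match describes letters in a window and is not evidence of binding in these muscles.

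The 8 main copies were among the more abundant nuclear transcripts of the muscle, apart from COX7A, and none of them passed the test between M1BP RNAi and WT. Calls required a change of at least 1.5-fold together with an adjusted p no greater than 0.001, by the Wald test of DESeq2 with Benjamini-Hochberg adjustment over 11282 genes. Of these genes 6.75% were called, and of the 8 main copies 0 were called, as were 0 of the 2 L paralogues. An unadjusted p under 0.05 was found for 3 of the 10 genes, namely COX5B, COX4L and COX7AL. The edgeR quasi-likelihood test called only 8 genes in total by the same fold and adjusted p rule, so its 0 of the 8 main copies carries little weight. Its unadjusted p was under 0.05 for COX5B, and its filter on low counts removed both L paralogues. At a looser adjusted p of at most 0.05 with no fold minimum, DESeq2 passed 1 main copy (COX5B) and both L paralogues, where 24.4% of all genes tested passed.

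Levels can be compared between genes only per length, so normalised counts were divided by exon length in kilobases (kb). In WT the order was COX5A (93103 ± 13600 normalised counts per kb, SD, n = 3), levy (86072 ± 10710), COX6B (70064 ± 10814), COX4 (55401 ± 8139), COX5B (52731 ± 7521), COX8 (44283 ± 6078), COX7C (32995 ± 4878) and COX7A (2151 ± 325). From COX5A down to COX8, every neighbouring pair overlapped in its range over the WT libraries. COX8 and COX7C did not overlap, and COX7C was 15.3 times as abundant as COX7A. By rank among the 10746 nuclear genes with a count in every library, COX5A stood at 23, levy at 28, COX6B at 52, COX4 at 88, COX5B at 98, COX8 at 127, COX7C at 170 and COX7A at 1265. In M1BP RNAi the order was the same except that levy stood before COX5A and COX8 before COX5B.

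**Figure D1:**
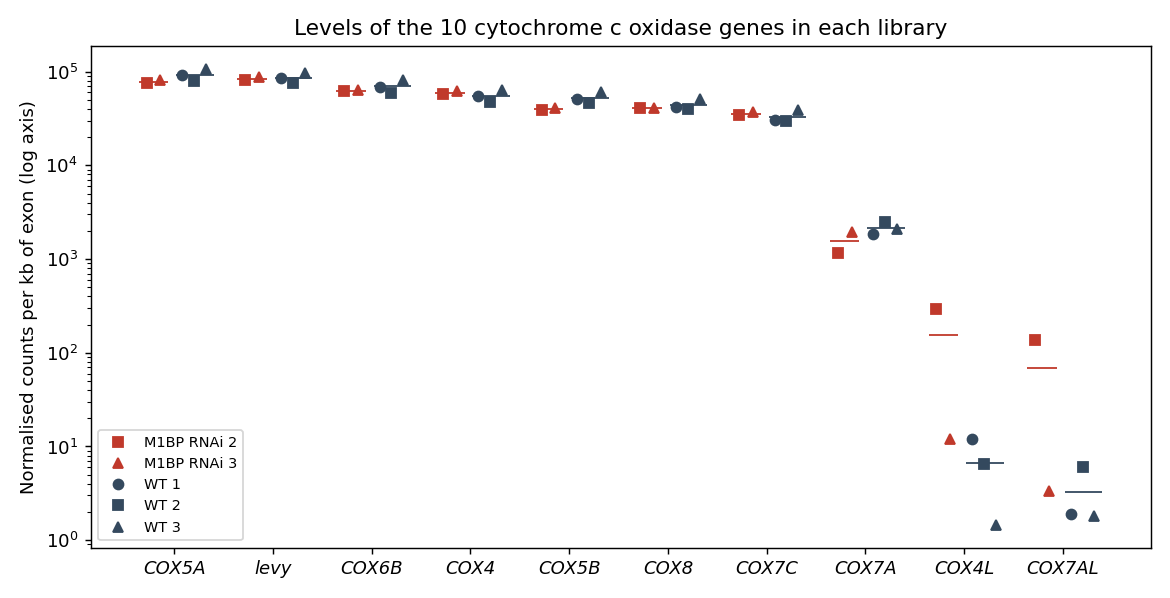
Normalised counts per kb of exon (log axis) of the 10 genes in each library, with M1BP RNAi libraries in red on the left of each gene and WT libraries in dark blue on the right, and lines at the group means. 7 main copies lie at a similar height in both groups, COX7A lies far below them, and the L paralogues are high in M1BP RNAi replicate 2 alone.

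COX4, which joins the mtDNA-encoded core early in assembly and is a site of regulation by ATP in mammals, lies on 2L at 19958713 to 19960065 on the plus strand (FBgn0032833). It had 71054 and 76261 normalised counts in M1BP RNAi replicates 2 and 3, against 67866, 58350 and 78381 in WT replicates 1, 2 and 3. Both M1BP RNAi values fell inside the WT range. The fold change, M1BP RNAi over WT, was 1.08 with a 95% interval of 0.874 to 1.33 (adjusted p = 0.651 by DESeq2).

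COX5A (FBgn0019624, 3R, 11819359 to 11820299, plus strand) encodes a subunit on the matrix side of the enzyme. It had 59641 and 64813 normalised counts in M1BP RNAi, against 73054, 63851 and 85425 in WT. M1BP RNAi replicate 2 lay below all WT libraries and replicate 3 just above WT replicate 2. The fold change was 0.840 (95% interval 0.680 to 1.04, adjusted p = 0.236 by DESeq2).

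COX5B (FBgn0031830, 2L, 6557800 to 6559308, plus strand), the zinc-binding matrix-side subunit, was the only main copy whose groups did not overlap. It had 28690 and 29663 normalised counts in M1BP RNAi, against 36893, 33898 and 44531 in WT. The mean was 29176 ± 688 (SD, n = 2) in M1BP RNAi and 38441 ± 5483 (SD, n = 3) in WT. The fold change of 0.759 (95% interval 0.620 to 0.929, log2 fold change -0.40, SE 0.149) had an adjusted p of 0.0347 by DESeq2, so COX5B was not called, and the adjusted p was 0.132 by edgeR. Groups did not overlap for 48.9% of all genes tested, against 1 of the 8 main copies.

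The groups overlapped for COX6B and for levy. COX6B (FBgn0031066, X, 19740537 to 19744335, minus strand), which faces the intermembrane space, had 48691 and 50212 normalised counts in M1BP RNAi, against 54421, 47210 and 64211 in WT. Its fold change was 0.895 (95% interval 0.721 to 1.11). It shares 74 exon bases with CG18809 on the same strand, a gene with far fewer counts (2964 to 5035 in M1BP RNAi and 2572 to 3580 in WT).

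The gene levy (FBgn0034877, 2R, 23548239 to 23548982, plus strand) encodes the fly COX6A subunit, and flies mutant for it become paralysed and lose neurons with age. It had 48318 and 51568 normalised counts in M1BP RNAi, against 50637, 44901 and 57583 in WT. This was the gene with the smallest difference among the main copies, with a fold change of 0.978 (95% interval 0.811 to 1.18). It shares 16 exon bases with pita on the other strand.

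COX7C and COX8 are small subunits that cross the inner membrane. COX7C (FBgn0040773, 2R, 10048353 to 10050066, plus strand) had 29314 and 31427 normalised counts in M1BP RNAi, against 26115, 25389 and 32931 in WT, a fold change of 1.08 (95% interval 0.875 to 1.33). COX8 (FBgn0263911, 3L, 21538859 to 21539447, minus strand) had 21018 and 21139 in M1BP RNAi, against 21251, 20602 and 26298 in WT, a fold change of 0.928 (95% interval 0.763 to 1.13). The WT values enclosed those of M1BP RNAi for both genes. COX7C shares 134 exon bases with oys on the other strand, and oys had 787 to 1384 counts over the 5 libraries.

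COX7A (FBgn0040529, 3R, 8339944 to 8341043, minus strand) belongs to a subunit family at the interface of Complex IV with its neighbours in mammals. It had 812 and 1356 normalised counts in M1BP RNAi, against 1285, 1737 and 1475 in WT, so replicate 2 lay below all WT libraries and replicate 3 among them. The mean was 1084 ± 384 (SD, n = 2) in M1BP RNAi and 1499 ± 227 (SD, n = 3) in WT, and the coefficient of variation in M1BP RNAi was 35.4% for COX7A, against 0.408% to 5.88% for the other main copies. Its fold change was 0.723 (95% interval 0.491 to 1.06, adjusted p = 0.228 by DESeq2). The log2 fold change was -0.47 with both M1BP RNAi libraries, -0.13 (adjusted p = 0.899 by DESeq2) without M1BP RNAi replicate 2 and -0.87 (adjusted p = 0.00736) without M1BP RNAi replicate 3. In each of the last 2 fits a single library stood for M1BP RNAi and was assumed to vary like the WT libraries, and COX7A was called in neither.

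Over the 8 main copies, log2 fold changes ran between -0.47 and 0.11, with 6 below 0 and 2 above it. Their median was -0.13, beside a median of 0.02 over all genes tested. The WT libraries shifted together: 7 of the 8 were highest within WT in replicate 3 and 7 were lowest in replicate 2. In each of the 8 genes M1BP RNAi replicate 3 was above replicate 2. The median log2 fold change was -0.02 without WT replicate 3 and -0.23 without WT replicate 2.

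A missed threshold does not show that a gene kept its level, so the opposite question was tested as well, a choice made after these values were seen. The test asked whether a change was smaller than 1.5-fold in either direction. It passed for 5 of the 8 main copies at an adjusted p of at most 0.05 over all genes, namely levy (adjusted p = 4.94e-04 by DESeq2), COX8 (0.00418), COX7C (0.00803), COX4 (0.00889) and COX6B (0.0231). Of the 15042 genes in that test, 18.9% passed. The test was run without DESeq2's filter on low counts, so this set is wider than the 11282 genes above. Genes with few counts can rarely pass it, so the share is no baseline for abundant genes such as most main copies. COX5A (adjusted p = 0.0773), COX5B (0.354) and COX7A (0.847) did not pass, and for COX5B and COX7A the 95% interval reached beyond a 1.5-fold decrease.

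**Figure D2:**
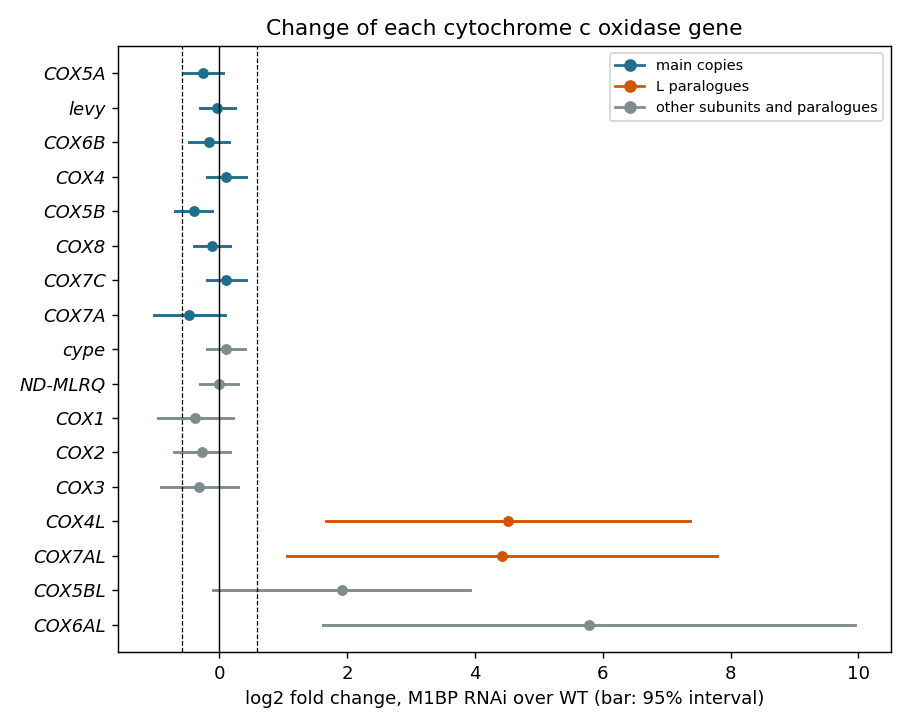
Log2 fold change of each gene, M1BP RNAi over WT, by DESeq2 with 95% intervals (bars), for main copies (blue), L paralogues (orange) and other subunits and paralogues (grey), with dashed lines at a 1.5-fold change. The intervals of 6 main copies lie inside the dashed lines, those of COX5B and COX7A cross the lower line, and those of the L paralogues are several log2 units wide.

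The share of each main copy within a library does not depend on the size factor, so it was used to look at the balance among subunits. It is the level per kb as a percent of the summed level of the 8 main copies. COX4 held 14.74% and 14.94% in M1BP RNAi, against 12.95%, 12.41% and 12.67% in WT. COX5B held 10.05% and 9.81% in M1BP RNAi, against 11.89%, 12.17% and 12.16% in WT. COX4 therefore held a larger share in both M1BP RNAi libraries than in any WT library, and COX5B a smaller share.

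The same separation was seen for 3 other main copies. COX5A held 19.1% and 19.6% in M1BP RNAi, against 21.6%, 21.0% and 21.4% in WT. COX7C held 8.77% and 8.89% in M1BP RNAi, against 7.19%, 7.79% and 7.68% in WT. For levy the shares were 20.8% and 21.0% in M1BP RNAi, against 20.1%, 19.8% and 19.3% in WT. COX5A was lower and COX7C and levy were higher in M1BP RNAi, whereas the shares of COX6B, COX8 and COX7A overlapped. Shares of the 8 genes add up to the whole, so a larger share of a gene goes with smaller shares of others.

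The ratio of COX4 to COX5B, a pair picked after their shares were seen, was 1.47 and 1.52 in M1BP RNAi, against 1.09, 1.02 and 1.04 in WT. The shares are given as a description with no test. A two-sided exact permutation test of 2 libraries against 3 cannot go below p = 0.2. When every gene tested was set against the same sum, 42.1% did not overlap between the groups, beside 5 of the 8 main copies.

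**Figure D3:**
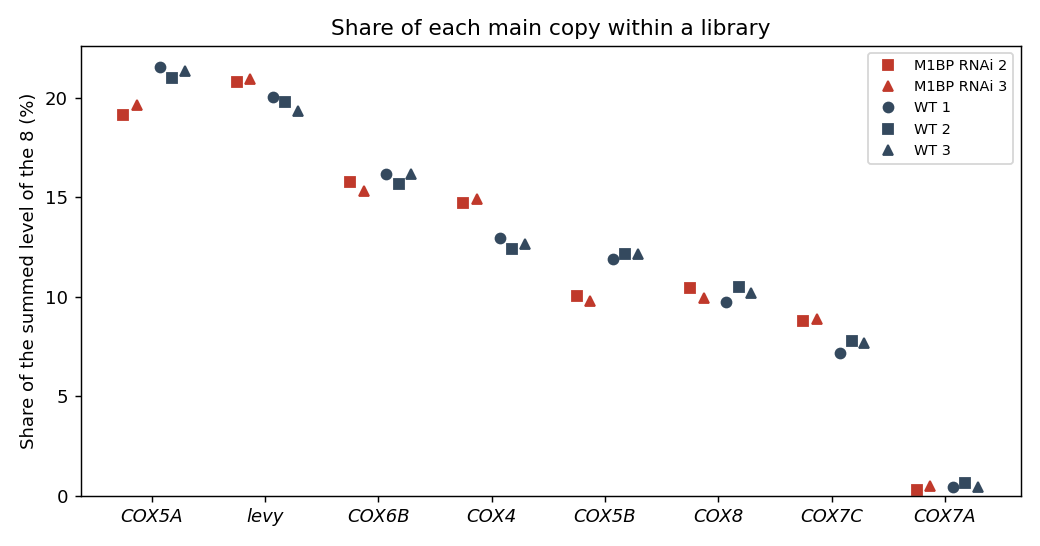
Share (%) of each main copy in the summed level per kb of the 8 main copies, by library, with M1BP RNAi in red on the left and WT in dark blue on the right. COX4, COX7C and levy lie higher and COX5A and COX5B lower in both M1BP RNAi libraries than in all WT libraries, and no share of COX7A exceeds 0.652%.

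Other structural genes of Complex IV were not called either. The nuclear subunits cype, the fly COX6C, and ND-MLRQ, the fly counterpart of a mammalian subunit first placed in Complex I, are the remaining 2 of 10 genes in the study's list of Complex IV structural subunits. The fold change was 1.08 for cype (95% interval 0.876 to 1.33) and 1.00 for ND-MLRQ (95% interval 0.815 to 1.23), and 0 of the 10 genes of the list were called. The mtDNA-encoded COX1, which holds the oxygen-binding centre, had 709000 and 1415470 normalised counts in M1BP RNAi, against 1405680, 1489370 and 1227000 in WT. COX2, which receives electrons from cytochrome c, and COX3 were likewise lower in M1BP RNAi replicate 2 than in all other libraries. Of these 3 genes 0 were called, beside 6.75% of all genes tested. The fold change was 0.773 for COX1 (95% interval 0.515 to 1.16), 0.829 for COX2 (0.609 to 1.13) and 0.807 for COX3 (0.529 to 1.23). Each of these intervals reached beyond a 1.5-fold decrease. These lower fold changes rested on M1BP RNAi replicate 2. In replicate 3, COX1 lay within the WT range, as did COX2 (312927 normalised counts, against 287333 to 313441 in WT). COX3 lay just above that range in replicate 3 (863984, against 711693 to 859731 in WT). The summed level of the 3 mtDNA subunits was 3.24 and 5.96 times that of the 8 main copies in M1BP RNAi and 5.55, 6.58 and 4.29 times in WT.

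The L paralogues followed a single library. COX4L (FBgn0033020, 2R, 5353994 to 5354723, plus strand) had 294 and 9 counts in M1BP RNAi replicates 2 and 3, against 8, 4 and 1 in WT. COX7AL (FBgn0037579, 3R, 8343669 to 8344310, plus strand) lies 2625 bases from COX7A and had 109 and 2 counts in M1BP RNAi, against 1, 3 and 1 in WT. In normalised counts, COX4L was 24.3 times and COX7AL 40.6 times as high in M1BP RNAi replicate 2 as in replicate 3, and replicate 3 lay within the WT range for both.

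The fitted fold change of COX4L was 22.9 (95% interval 3.20 to 164, adjusted p = 0.0117 by DESeq2), and that of COX7AL was 21.5 (95% interval 2.09 to 221, adjusted p = 0.0426). Without M1BP RNAi replicate 2, the log2 fold change fell to 0.87 for COX4L and 0.06 for COX7AL, beside 4.52 and 4.43 with it, and neither then received an adjusted p. The fit without M1BP RNAi replicate 3 called COX4L (adjusted p = 9.54e-06), with the remaining library alone standing for M1BP RNAi.

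Even in that library the L paralogues were a small part of each pair. The level per kb of COX4L was 0.507% of COX4L and COX4 together in M1BP RNAi replicate 2 (95% Wilson interval 0.453% to 0.568%), against 0.0195% in M1BP RNAi replicate 3 and 0.0023% to 0.0220% in WT. COX7AL made up 10.4% of COX7AL and COX7A in M1BP RNAi replicate 2 (95% Wilson interval 8.73% to 12.4%), against 0.172% in M1BP RNAi replicate 3 and 0.0856% to 0.244% in WT. The larger share of COX7AL goes with the low level of COX7A itself. These intervals cover counting error only.

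Other duplicated genes of the complex showed the same library. COX5BL, which lies 122 bases after COX5B and overlaps CG9596 on the other strand by 647 exon bases, had 166 and 14 counts in M1BP RNAi, against 15, 17 and 16 in WT. COX6AL, a relative of levy, had 104 and 4 counts in M1BP RNAi, against 0, 0 and 2 in WT. CG31913, a gene in the study's list of Complex IV assembly factors that was singled out after its values were seen, had 152 and 2 counts in M1BP RNAi, against 0, 0 and 0 in WT. None of the 3 was called.

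The testis markers moved with these genes. Of the 22 markers, 16 received an adjusted p and 4 were called, all higher in M1BP RNAi, with 0 called without M1BP RNAi replicate 2. With all 5 libraries, 6.75% of all genes tested were called. Mst84Da, a sperm-tail gene, had 727 and 6.87 normalised counts in M1BP RNAi, against 2.21, 1.19 and 2.13 in WT. The germline regulators bam and aly each had 2.92 normalised counts in M1BP RNAi replicate 2, which is near the floor. In other libraries bam reached 2.13 (WT replicate 3) and aly 0.98 (M1BP RNAi replicate 3). No testis marker was at 0 in M1BP RNAi replicate 2. In bulk libraries, more cells of a type and more RNA per cell cannot be told apart, and the part of testis RNA in the values of the L paralogues was not tested. Fat body markers summed to 12696 and 12352 normalised counts in M1BP RNAi and 6063 to 11541 in WT. Neuron markers summed to 1880 and 2034 in M1BP RNAi and 2058 to 2395 in WT. The log2 fold change was -0.08 for elav, which made up most of that sum, and -1.19 to -0.91 for the other neuron markers. Of the fat body and neuron markers, 0 were called, beside 6.75% of all genes tested.

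**Figure D4:**
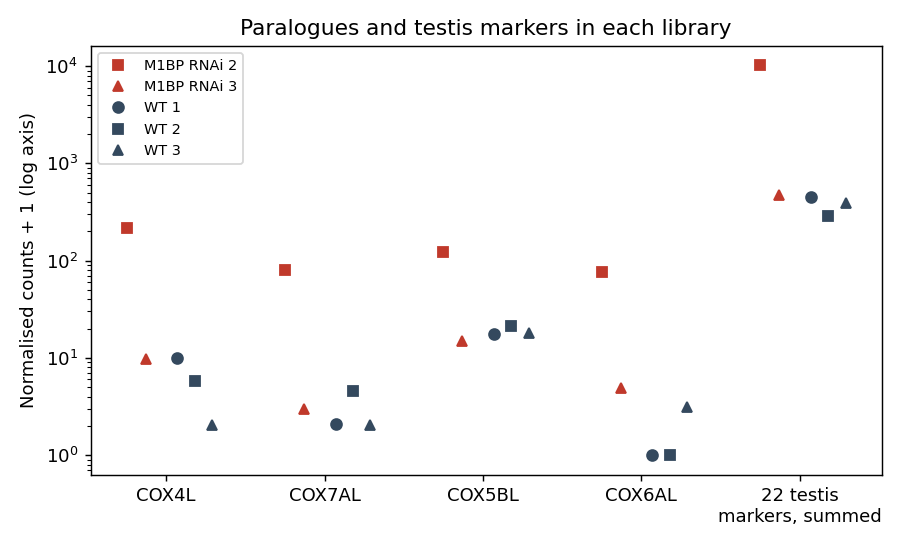
Normalised counts plus 1 (log axis) of the L paralogues, of COX5BL and COX6AL and of the sum of 22 testis markers in each library, with M1BP RNAi in red on the left and WT in dark blue on the right. M1BP RNAi replicate 2 lies far above the other 4 libraries in every column, and M1BP RNAi replicate 3 lies near the WT libraries.

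Some other respiratory genes were called. Among the 22 Complex IV assembly factors, proteins that help build the enzyme and are not part of it, 4 fell and 1 rose in M1BP RNAi. The share called was 22.7%, beside 6.75% of all genes tested, and this difference was not tested. The median log2 fold change of the 22 was -0.12. CG17996 had 280 and 284 normalised counts in M1BP RNAi, against 1312, 1304 and 1513 in WT (log2 fold change -2.29, adjusted p = 2.71e-53 by DESeq2). The gene l(3)neo43 had 441 and 428 in M1BP RNAi, against 1794, 1628 and 2421 in WT, and CG11562 had 2853 and 2957 in M1BP RNAi, against 6136, 5546 and 7173 in WT. All 3 were lower in both M1BP RNAi libraries than in any WT library. They were chosen as the called genes with the smallest p, so this separation largely followed from the choice. Groups did not overlap for 48.9% of all genes tested. By edgeR, which called 8 genes in total, 0 of the 22 assembly factors were called.

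Most structural subunits of the other complexes were not called either. In Complex I, the NADH dehydrogenase, 3 of 36 genes fell and 1 rose (median log2 fold change -0.08), with ND-B14 at 2859 and 2844 normalised counts in M1BP RNAi, against 11882, 10560 and 14120 in WT. In Complex III, which hands electrons to cytochrome c, UQCR-C2 alone fell among 9 genes (median -0.10), with 9459 and 8315 normalised counts in M1BP RNAi, against 92137, 80606 and 104728 in WT. Of the 4 genes of Complex II and the 14 of Complex V, the ATP synthase, 0 were called, with medians of -0.07 and -0.09. The Complex IV structural list had a median of -0.07. These counts stand beside the 6.75% called over all genes tested, and whether the lists differ in their called genes was not tested. By edgeR, which called 8 genes in total, 0 genes of Complex I and 0 of Complex III were called.

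**Figure D5:**
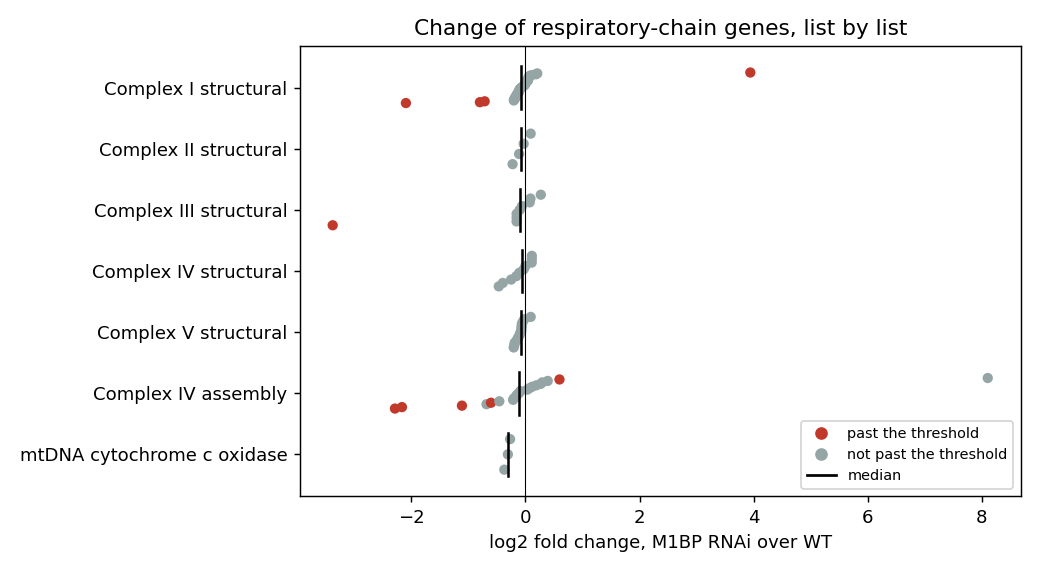
Log2 fold change (M1BP RNAi over WT) of each gene in 7 lists of respiratory-chain genes, with called genes in red, others in grey and a black line at the median of the list. Called genes stand in Complex I, Complex III and the Complex IV assembly list, 0 stand among the Complex IV structural subunits, and the grey point far to the right is CG31913.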

How the data were processed

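Per the file headers, the authors deposited whole-number counts of uniquely aligned reads (dm6) over the exons of each gene, and the submitters' notes name featureCounts and Subread 2.0.3. The aligner and the strand setting are not given in the sources used here, so reads of overlapping genes could be shared. Exon length was taken from the same table. A deposited DESeq2 table (mean, fold change, p-value) served only for gene symbols. No count column was unmapped (0).

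Counts were fitted in R 4.3.3 with DESeq2 1.42.0 (default Wald test, all 5 libraries, no covariate), and 95% intervals are the estimate ± 1.96 SE. Alternatives were edgeR 4.0.16, TMM size factors, mtDNA genes left out, at least 10 counts in 2 libraries, no independent filtering, other thresholds, the replicate block and each library left out. The fits were tested on simulated data in which all genes had the same dispersion and no library was an outlier. That test therefore does not cover a library such as M1BP RNAi replicate 2. The labels do not say that libraries came from separate crosses, so p-values measure the spread between these libraries, of which none was a copy of another (chi-square per degree of freedom 99.0 to 139).

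The genes, lists and markers were chosen with earlier results of these data known. Genes named are the 10 members, M1BP, the other Complex IV genes, genes that overlap a member and at most 3 called genes or markers per list. The genes roX1, CG9596 (which overlaps COX5BL) and those said so in the text were picked after their values were seen. The counts used here held no column for M1BP RNAi replicate 1, so it was not analysed.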

Additional observations from a re-analysis of the deposited data

How the results depend on the processing

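With 2 M1BP RNAi libraries and WT libraries that shift together, the 95% intervals of COX5B and COX7A still include decreases of more than 1.5-fold. The count of the 10 genes called, 0 by the stated rule, was between 0 and 1 when a library was left out, and the count of the 8 main copies called was 0 in each of those fits. With an adjusted p of at most 0.05 and no fold minimum, 3 of the 10 genes and 1 of the 8 main copies passed. When a library was left out, the log2 fold change ran between -0.0014 (without WT replicate 2) and 0.22 for COX4, between -0.19 and 0.0080 (without WT replicate 3) for COX8, and between -0.13 and 0.062 (without WT replicate 3; 0.03 without M1BP RNAi replicate 2) for levy, so the sign turned in these fits, none of them past the threshold, and the cause was not tested. The adjusted p of COX5B was between 0.00771 and 0.438 when a library was left out. Over all genes, 762 were called, against 8 by edgeR, 319 without M1BP RNAi replicate 2, 491 without WT replicate 2 and 315 with the replicate block. Same-numbered libraries did not deviate together (correlations -0.30 and -0.08), and the numbers were not taken as pairs. That check cannot settle pairing, because 2 M1BP RNAi libraries deviate from their mean by equal and opposite amounts. With the replicate block, 0 of the 10 genes were called, and the median log2 fold change over the main copies was -0.15. COX4L was 0.301% of its pair in M1BP RNAi replicate 2 when counts were not divided by exon length. Counts called in the lists were 2 to 4 for Complex I, 3 to 5 for the assembly factors and 0 to 12 for the testis markers when a library was left out. The motif search over all promoters was not run, since no promoter table was used here.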
